A study of Apis mellifera with 6 samples.

Results

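Among the 10041 genes counted in the honey bee midgut, 157 well-expressed genes were higher in every bee fed halofuginone than in any control bee by a clear margin. They were picked on the values themselves. The mean of the 3 control libraries had to be at least 200 normalised counts, and the lowest halofuginone library had to reach at least 1.5 times the highest control library. Of the 6395 genes past the first limit, 164 (2.56%) passed the second. Genes under 18 symbol prefixes and 8 LOC numbers were left out by name. These cover small heat shock proteins, Hsp and Hsc chaperones, ribosomal proteins, troponins, cytochromes P450, tRNAs, microRNAs, immune and antioxidant genes. Genes of these groups under any other LOC number were kept, and 155 of the 157 members carry only a LOC number. The exclusion removed 7 genes that met both limits. These were LOC724367, LOC410087, LOC724274 and LOC724449, which the paper on these bees assigns to the l(2)efl family of small heat shock proteins, with Trxr-1, Hsc70-5 and Mir9865. The opposite pattern, with the lowest control library at least 1.5 times the highest halofuginone library, was met by 65 of the 6395 genes (1.02%).

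The libraries came from midguts of adult Apis mellifera caught on the landing board of outbred colonies, a mix of the subspecies kept in North America. The methods state that bees within an experiment shared a colony, so the spread between them does not cover differences between colonies. Bees drank sucrose solution with 200 µM halofuginone in 0.5% DMSO, or with 0.5% DMSO alone, for 24 h. Each library held 1 midgut, with 3 per group, named Control 1 to 3 and Halofuginone 2 to 4 after the labels. The age of the bees is not known here. In such bulk samples, a change in RNA per cell and a change in the number of cells of a type cannot be told apart.

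Halofuginone inhibits the enzyme that loads proline onto its tRNA. Uncharged tRNA is sensed by the kinase GCN2, which phosphorylates the initiation factor eIF2α, so that general translation drops while the transcription factor ATF4 is made more efficiently and turns on stress genes. This route is known as the integrated stress response. Citing its authors' other work, the paper proposes that halofuginone may act through disturbed translation rather than a lack of amino acid. Which of these held in these bees was not tested. The midgut is the digestive and absorptive part of the bee gut and meets a compound taken with food.

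Recovered read totals ran from 23305398 to 26278866 per library, and no member had fewer than 147 reads in any library. The sums of most lists of tissue and cell type markers overlapped between the groups. The 7 troponin genes of muscle summed to 5340.1 to 8916 normalised counts in controls and 4750.0 to 8532 after halofuginone, 5 neuronal genes to 342 to 427 and 351 to 428, and the 2 royal jelly protein genes of the head gland to 1622 to 3140.0 and 1562 to 2577. Within the troponin list, TpnCI and TpnCIIIb were lower in every treated bee than in any control, and the others overlapped. Their log2 differences were −0.43 and −1.36, with limma adjusted p of 0.136 and 0.0590. The 1 haemocyte gene, PPO, ran from 63.1 to 75.9 and from 56.1 to 71.3. The 5 fat body genes were the exception, with sums of 735 to 973 in controls and 453 to 721 after halofuginone. Taken singly, only Hex110 did not overlap between the groups, and limma adjusted p of these genes ran from 0.232 to 0.717. The part of the difference between the sums in the values below was not tested. Markers of gut cells could not be picked out, because the files give them no symbol.

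**Figure D1:**
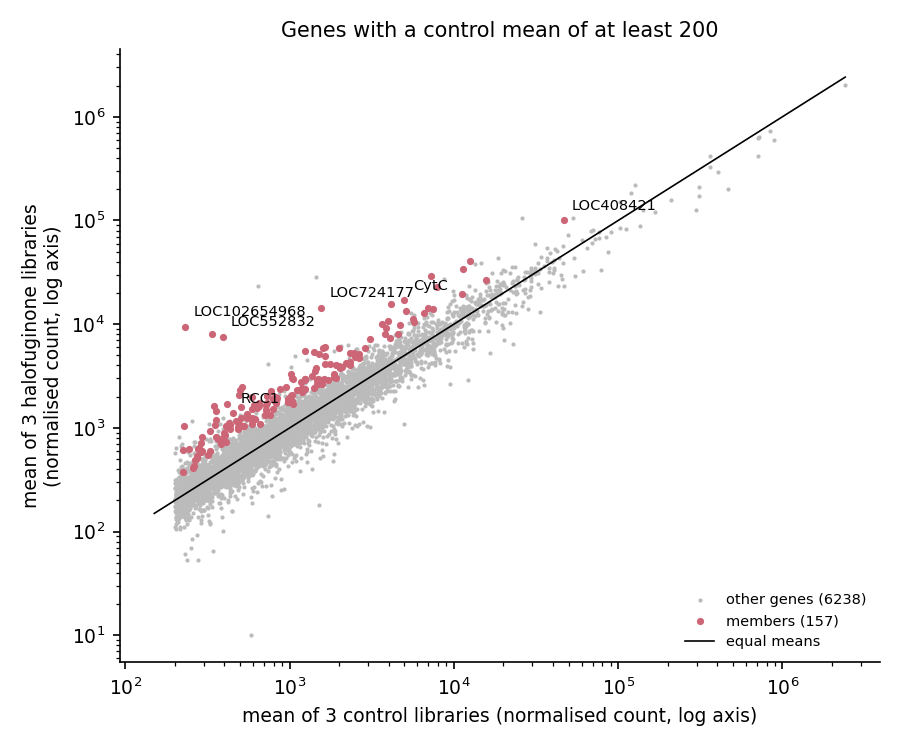
Mean of the 3 halofuginone libraries against the mean of the 3 control libraries, both as normalised counts on log axes, for the 6395 genes with a control mean of at least 200. The 157 members lie above the line of equal means, as the rule requires, with control means from 223 in LOC100577136 to 46645 in LOC408421.

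The 157 genes were spread over a wide range of read counts. Their control means ran from 223 to 46645 normalised counts with a median of 975. In 46 genes the control mean was under 500, in 97 it was from 500 to under 5000, and in 14 it was 5000 or more. Read counts grow with transcript length as well as with abundance, so this range does not rank the genes by abundance. The ratio of group means had a median of 2.23, with a lowest value of 1.58 for LOC412688 and a highest of 40.9 for LOC102654968. Because the same values chose the genes, these figures describe the set and carry no test.

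On the log2(value + 1) scale the median difference of the 157 genes was 1.15, with quartiles of 0.93 and 1.42, against −0.01 both for all 10041 genes and for those with a control mean of at least 200. In 103 genes the log2 difference was above 1. In a limma fit over all genes, 102 of the 157 passed an adjusted p below 0.05 together with a log2 fold change above 1, a call made for 1.67% of all genes in this direction, and 156 passed the adjusted p alone (4.63%). The rule used the same contrast, so nothing is read from these shares. Without Control 3 the limma call was passed by 29 of the 157, without Control 2 by 40 and without Halofuginone 4 by 66. A further 66 genes were called higher by limma without belonging to the set. Of these, 45 had a control mean under 200, 15 had a ratio under 1.5 and 6 were left out by name.

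A gap set 4 genes apart from the other members. They were LOC102654968, LOC552832, LOC102654076 and LOC724177, in which even the lowest halofuginone library was 15.01, 13.1, 12.4 and 6.13 times the highest control library. The next gene, LOC100578660, stood at 2.94. From there the ratios fell without a break, with 27 genes, LOC100578660 included, from 2 to under 3 and 126 from 1.5 to under 2, and the median over the set was 1.71. None of the 4 leading genes has a symbol or a product name in the files or the gene table, so no role can be given for them. Among the genes left out by name, LOC724367 and LOC410087 had ratios of 18.1 and 12.1.

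**Figure D2:**
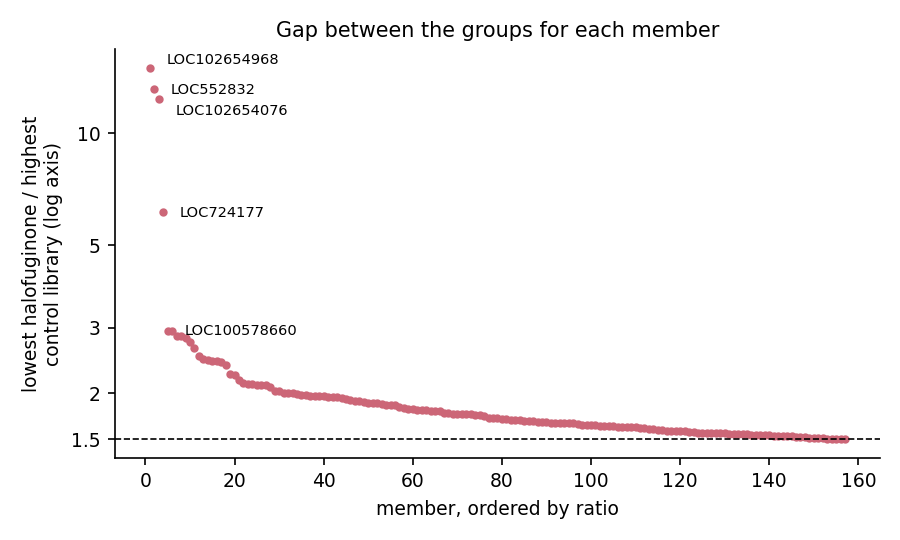
Ratio of the lowest halofuginone library to the highest control library for each of the 157 members, in descending order on a log axis, with the limit of 1.5 dashed. The first 4 genes are at 6.13 or more and the fifth is at 2.94.

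LOC102654968 had 247, 211 and 237 normalised counts in Control 1, 2 and 3, and 3708, 19704 and 5058 in Halofuginone 2, 3 and 4. The control bees were close together, whereas Halofuginone 3 held 5.31 times as much as Halofuginone 2. The log2 difference was 4.95 ± 0.56 (SE), and it was 4.22 when Halofuginone 3 was left out. Here and below, SE is the moderated value of limma. It draws the variance of a gene towards a trend over all genes, so it does not rest on that gene's own values alone. LOC102654968 overlaps LOC100578814, whose mean went from 18.8 to 36.0 normalised counts.

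LOC552832 rose to a similar level in each treated bee. Its counts were 506, 381 and 286 in the controls and 7719, 6638 and 8434 after halofuginone. Among the 4 leading genes it was the one in which Halofuginone 3 was not the highest library. The log2 difference was 4.31 ± 0.21 (SE).

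LOC102654076 and LOC724177 overlap each other in the Amel_HAv3.1 gene table, where the first is listed as a long non-coding RNA and the second as protein-coding. LOC102654076 had 575, 184 and 254 normalised counts in the controls and 7135, 9735 and 7496 in the treated bees, with a log2 difference of 4.74 ± 0.39 (SE). Its control libraries were the most uneven of all 157 genes, Control 1 being 3.13 times Control 2. LOC724177 went from 1887, 1398 and 1402 to 11562, 18010.2 and 13820.5, with a log2 difference of 3.20 ± 0.20 (SE). In both genes Control 1 was the highest control and Halofuginone 3 the highest treated library. Whether the counting used strand is not known, so reads from the shared stretch may have gone to either gene.

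Behind these came 8 genes with a ratio of 2.5 or more, and in these the treated bees lay close together. LOC100578660 had 9482, 6211 and 6163 normalised counts in the controls and 27864, 29511 and 29441 after halofuginone, a log2 difference of 2.02 ± 0.19 (SE). Its treated libraries differed by 1.06-fold at most. LOC725976 had 1816, 1251 and 1175 against 5396, 5329.5 and 5503, a log2 difference of 1.96 ± 0.17 (SE). Here too the treated bees lay within 1.03-fold while the controls differed by 1.55-fold.

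LOC410879 was even in both groups, at 528, 512 and 471 normalised counts in the controls and 1509, 1738 and 1525 in the treated bees. Its log2 difference was 1.66 ± 0.11 (SE). LOC411845 had 494, 319.6 and 256 in the controls and 1410.4, 1507 and 1406 after halofuginone, a log2 difference of 2.07 ± 0.23 (SE). As in LOC725976, the unevenness was on the control side, where Control 1 was 1.93 times Control 3. The remaining genes of this band were LOC551255, LOC413935, LOC725925 and LOC551148, with log2 differences of 1.87, 1.80, 1.61 and 1.43.

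**Figure D3:**
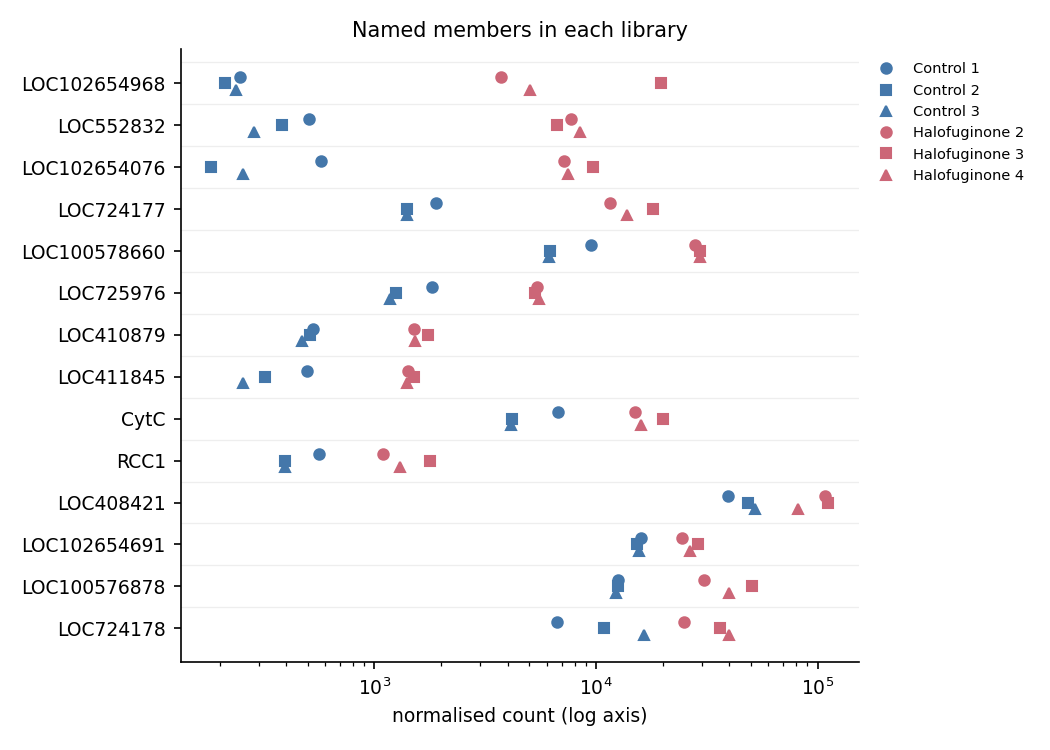
Normalised counts (log axis) of 14 members in each of the 6 libraries, controls in blue and halofuginone in red, with 1 symbol shape per library. The groups do not overlap in any row, as the rule requires, and the width of the gap runs from 15.01-fold in LOC102654968 to 1.51-fold in LOC724178.

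A gene symbol other than a LOC number was carried by 2 of the 157 genes, CytC and RCC1. Such symbols are rare in these files. After the same exclusions by name, 153 of 6353 genes with a control mean of at least 200 had one. CytC encodes cytochrome c, the small haem protein that passes electrons between complexes of the mitochondrial respiratory chain and that, in vertebrates, helps to start apoptosis when it leaves the mitochondrion. Its normalised counts were 6720.4, 4161 and 4122 in Control 1, 2 and 3 and 14991, 20075 and 15984 in Halofuginone 2, 3 and 4. All treated bees were well above all controls, and Control 1 was the control nearest to them. The group means were 5001 ± 1489 and 17017 ± 2695 (SD, n = 3), and the log2 difference was 1.79 ± 0.22 (SE).

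Other respiratory chain genes that carry a symbol did not share the size of this difference, for which the rule had picked CytC. Those under LOC numbers could not be followed. The files hold 9 more symbols for subunits, assembly or cofactor synthesis of the chain and for ATP synthase, a list drawn up by symbol after the files had been seen. Their log2 differences ran from −0.46 for Ndufs1, a complex I subunit, to 0.46 for Pet117, a cytochrome oxidase assembly factor in yeast. The median of the 9 was −0.03, beside −0.01 for all genes. Of the 9, 0 met the rule, which 2.56% of genes with a control mean of at least 200 met. That share is too small for 9 genes to show a difference. Pet117, with a control mean of 156, was below that limit. ATP5G2, a subunit c gene of the ATP synthase, had 25208, 28318 and 27718 normalised counts in the controls and 26767, 24385 and 30766 after halofuginone. Cox6c, a cytochrome oxidase subunit, had 6848, 5457 and 4899 against 5485, 3183 and 5523, and in both genes the groups overlapped.

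RCC1 encodes, in vertebrates and Drosophila, the chromatin-bound exchange factor that charges the small GTPase Ran with GTP, which sets the direction of transport through nuclear pores. Its normalised counts were 562, 394 and 393 in the controls and 1095, 1779.7 and 1302 in the treated bees. Halofuginone 3 was the highest and Control 1 again the control nearest to the treated bees. The log2 difference was 1.62 ± 0.22 (SE).

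Genes of the integrated stress response and of translation could be followed only where a symbol named them. Of the ATF4, GCN2 and unfolded protein response symbols searched, 0 were found in the files. The translation factor list matched 3 genes, and 0 of them were members or were called by limma, beside 1.67% of all genes called higher, a share too small for 3 genes to show a difference. Its spelling missed Ef-1a-f1, whose mean went from 982 to 1466 normalised counts, and IF-2mt, from 1627 to 1462, and neither was a member. EF1a-F2, an elongation factor that brings charged tRNA to the ribosome, had 94309, 107351 and 106528 normalised counts in the controls and 151651, 154652 and 146382 after halofuginone. All its treated libraries were above all controls, with a log2 difference of 0.56 ± 0.22 (SE) and an adjusted p of 0.190 in limma over all genes. Eif3h and Eif4g, both parts of the initiation machinery, had log2 differences of 0.40 ± 0.13 and 0.10 ± 0.12 (SE), with limma adjusted p of 0.115 and 0.676. In Eif3h, too, all treated libraries were above all controls, at 2892 normalised counts or more against 2750 or less. In Eif4g the groups overlapped.

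The proteasome list held Rpn1 alone, at a log2 difference of −0.47 ± 0.19 (SE) and an adjusted p of 0.185 in limma. The patterns for tRNA charging and ribosome biogenesis matched by spelling only. They returned Burs and Pburs, subunits of the moulting hormone bursicon, and Fibroin4, a silk protein, with limma adjusted p of 0.342, 0.391 and 0.0990. No charging enzyme and no ribosome assembly factor was therefore measured under its own name.

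The 4 members with the highest control means were not among the 8 with the widest gaps, although LOC100578660, with a control mean of 7285, was. LOC408421 had the highest control mean of the 157 genes, with 39310.4, 48714 and 51911 normalised counts in the controls and 107813, 111350.0 and 81997 in the treated bees. Unlike in most members, Control 1 was its lowest control and Halofuginone 4 its lowest treated library. The log2 difference was 1.10 ± 0.22 (SE). LOC102654691 had nearly equal controls, at 15973, 15359.8 and 15702 against 24479, 28854 and 26672, a log2 difference of 0.76 ± 0.13 (SE).

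LOC100576878 also had nearly equal controls, with 12608, 12543 and 12306 normalised counts, and spread out after halofuginone to 30632, 50691 and 39787. Its log2 difference was 1.66 ± 0.20 (SE). LOC724178 was uneven in both groups, with controls of 6637, 10838 and 16502 and treated bees of 24843, 36380.2 and 39857. Its highest control was 2.49 times its lowest, and its ratio of 1.51 was set by Control 3. The log2 difference was 1.64 ± 0.35 (SE). In the 14 genes with a control mean of 5000 or more the ratio of means ran from 1.70 to 3.97.

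Together the 157 genes took 1.29%, 1.20% and 1.27% of the reads in Control 1, 2 and 3, and 3.00%, 4.02% and 2.83% in Halofuginone 2, 3 and 4. Every treated library was above every control, by the rule, and Halofuginone 3 was the highest. LOC408421 alone accounted for 0.158% to 0.204% of the control reads and 0.307% to 0.516% of the treated reads.

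The libraries did not contribute equally to the gap. Relative to its control mean, the median member stood at 1.08 in Control 1, 0.953 in Control 2 and 0.960 in Control 3, and at 2.06, 2.29 and 2.23 in Halofuginone 2, 3 and 4. The same median over all genes with a control mean of at least 200 lay between 0.981 and 1.02 in each of the 6 libraries. Control 1 was thus the control library nearest to the treated bees for the median member. It was the highest control in 111 of the 157 genes (70.7%), compared with 48.7% of the 6395 genes with a control mean of at least 200.

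**Figure D4:**
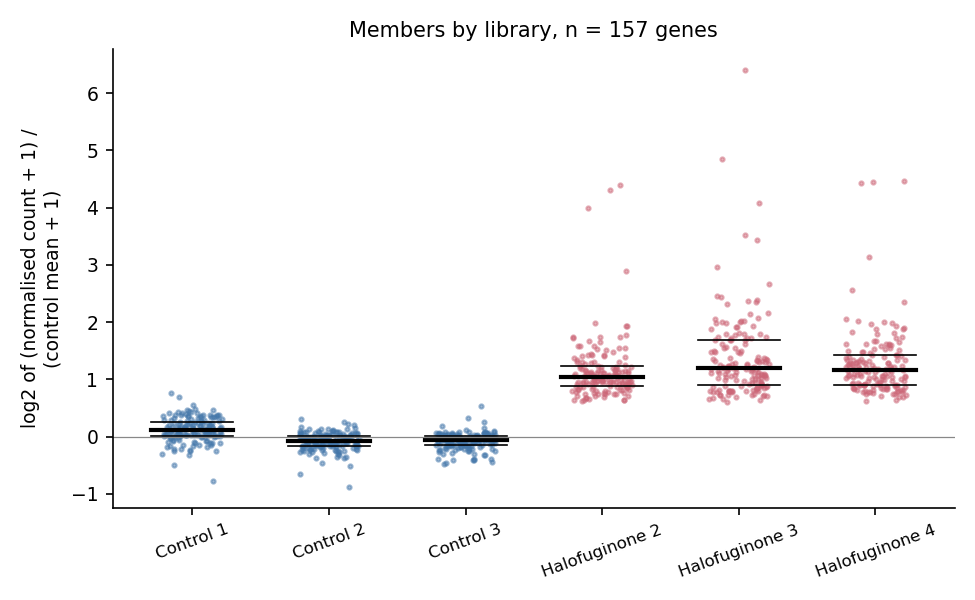
Each of the 157 members in each library, as log2 of its normalised count over the mean of the controls, with 1 added to both. Thick lines are medians and thin lines quartiles, and the medians are 0.11, −0.07 and −0.06 in Control 1, 2 and 3 and 1.04, 1.19 and 1.16 in Halofuginone 2, 3 and 4.

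On the treated side, Halofuginone 3 was the highest library in 88 of the 157 genes (56.1%) and Halofuginone 2 the lowest in 89 (56.7%), where these libraries took those places in 38.5% and 35.4% of the 6395 genes. Among the 31 members with a ratio of 2 or more, Control 1 was the highest control in 27 and Halofuginone 3 the highest treated library in 26. Since the rule compares extremes, the number of genes it finds depends on Control 1 and Halofuginone 2. It found 291 genes without Control 1 and 238 without Halofuginone 2, and 169 to 194 without any other library.

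The rule favours genes with little spread within a group, so the spread of the members is given only as a description. The highest halofuginone library was 1.19 times the lowest for the median member, and the highest control 1.23 times the lowest. Both values were 1.26 over the 6395 genes. In 130 of the 157 genes the treated bees lay within 1.5-fold of each other. The most even was LOC551406, named after its values were seen, with 2315, 2268 and 2265 normalised counts after halofuginone, although its controls were 1079.9, 678 and 565. LOC551016, also picked for its evenness, had 534, 525 and 543 after halofuginone and 275, 256 and 293 in the controls.

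In 9 genes the treated bees differed by more than 2-fold, and in 8 of these Halofuginone 3 was the highest. These were named after their values were seen. LOC107964607 had 991, 5529.5 and 877 normalised counts in Halofuginone 2, 3 and 4, against 464, 539 and 536 in the controls, so most of its group mean came from 1 bee. LOC724756 had 7323, 22962 and 16676 against 4629, 4084 and 3767, with Halofuginone 2 far below the other treated bees. LOC100578939 had 920.4, 2715 and 1284 against 477, 251 and 314. The others were LOC102654968, LOC413000, LOC725053, LOC100578090 and LOC551080, and LOC726827, in which Halofuginone 4 was the highest at 2946.

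Among the controls the spread passed 2-fold in 3 genes, and a spread above 1.5-fold was found in 31 genes among the controls and in 27 among the treated bees. The 3 genes were LOC102654076, LOC552686 and LOC724178. LOC552686 had 369.6, 145 and 171 normalised counts in Control 1, 2 and 3 and 769, 1193 and 1166 in the treated bees, so Control 1 was more than 2-fold above the other controls. At the other end LOC412688 had controls of 1931, 1908 and 1938 and treated bees of 3235, 2924 and 2964, a log2 difference of 0.66 ± 0.10 (SE), the smallest of the set.

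**Figure D5:**
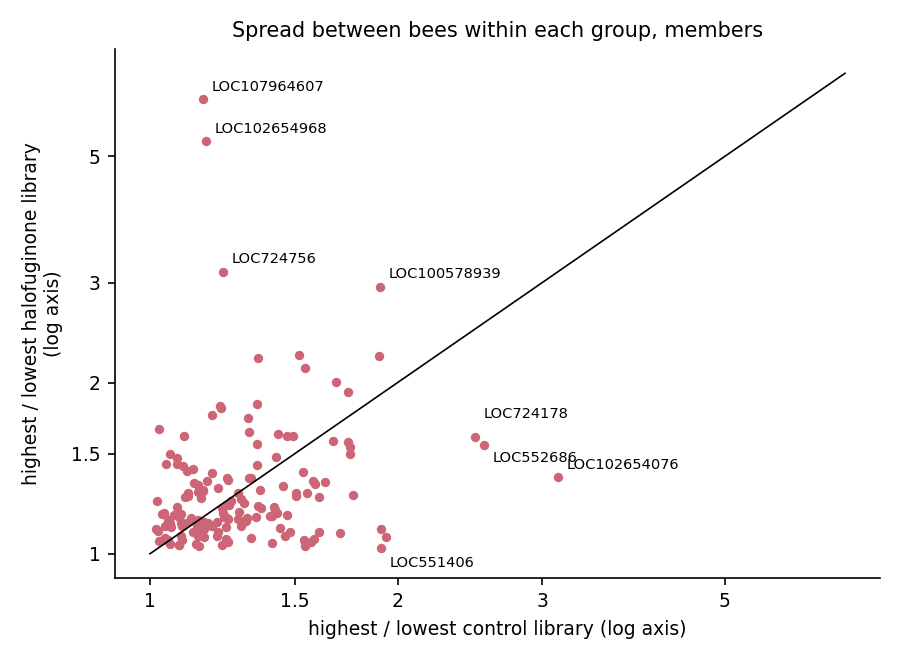
Ratio of the highest to the lowest library within each group for the 157 members, controls on the horizontal and halofuginone on the vertical log axis, with the line of equal spread. LOC107964607 at 6.31 and LOC102654968 at 5.31 stand out among treated bees, and LOC102654076 at 3.13 among controls.

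Positions in the genome are given as a description, since neighbours and overlaps were not counted over all genes. Of the 157, 155 were found in the Amel_HAv3.1 gene table, 153 as protein-coding and 2 as long non-coding RNAs. The second non-coding gene was LOC102654832, with 319.5, 229 and 188 normalised counts in the controls and 641, 600.1 and 653 in the treated bees. LOC107964356 and LOC107964607 were not found. In 6 places 2 members stood next to each other among the genes of the files, and in each of the 6 their spans overlapped.

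Besides LOC724177 with LOC102654076, these pairs were LOC411845 with LOC411846, LOC724169 with LOC408831, LOC411192 with LOC411191, LOC413000 with LOC724625, and LOC412343 with LOC724875. Members of a pair did not always differ by the same amount. The log2 differences were 2.12 and 0.91 in LOC413000 and LOC724625, and 2.07 and 1.20 in LOC411845 and LOC411846. They were 1.71 and 1.32 in LOC724169 and LOC408831, and 1.28 and 0.86 in LOC411192 and LOC411191. Reads of overlapping genes may not be separable, and Amel 4.5, on which the reads were counted, may place the spans differently.

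A span shared with some other gene of the files was found for 47 members, of which 35 overlapped only genes outside the set. The 43 outside genes had a median log2 difference of 0.25. The median over all genes was −0.01. In limma 1 of the 43 was called higher, LOC107965072, near the 1.67% of all genes. The remaining 110 members had no known overlap, and their median log2 difference was 1.16, compared with 1.15 for all 157. The sharpest contrast within an overlap was between LOC724517 and Pban, named after its values were seen, which encodes a neuropeptide precursor known in moths for driving pheromone synthesis. LOC724517 had 1211, 1606 and 1479 normalised counts in the controls and 3854, 2915 and 3968 after halofuginone. Pban had 638, 1091 and 17.4 in Control 1, 2 and 3 and 16.6, 8.58 and 5.39 in Halofuginone 2, 3 and 4, so Control 3 was close to the treated bees.

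The limits of the rule cut through a continuous range of values. The last genes inside the ratio limit were LOC413842, LOC413834 and LOC726431. LOC413842 had 1838, 1914 and 1839.9 normalised counts in the controls and 2880.3, 3081 and 3379 after halofuginone. LOC726431, with the lowest ratio of all at 1.502, had 251, 263 and 273 against 415, 476 and 409.9. The first genes outside, LOC552703, LOC100577252 and LOC107964207, had a ratio of 1.498 each, which differs from it by far less than the spread between bees.

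At the limit on the control mean, LOC100577136 was the last gene inside with a mean of 223, and LOC412769 the first outside with 199. LOC412769 had 196, 208 and 193 normalised counts in the controls and 372, 598 and 493 after halofuginone. Its ratio of 1.79 was above the median of the set.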

How the data were processed

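Midgut RNA of 6 bees, 3 per group, was sequenced from poly(A) libraries. Per the methods, paired reads of 150 bp were trimmed, aligned to Amel 4.5, summed by gene and passed to DESeq2. The submitters' processing notes name Trimmomatic 0.36, STAR, Subread and DESeq2, without roles. The 3 deposited tables hold a normalised signal, which the authors made by dividing read counts by 1 size factor per library. Divided by the worth of 1 read, 100% of values came out whole (tolerance 0.01 reads), and these recovered reads gave the same factors by the median-of-ratios method. The lowest total of a listed gene was 61 reads.

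All 10041 genes entered limma (3.58.1, R 4.3.3) on log2(value + 1) with a trended variance and no term besides group. Fold changes on this scale understate changes of low genes. The fit was checked on simulated data that gave every gene the same dispersion. In the real data the spread differs between genes, so the check does not bear on the calls made here. DESeq2 (1.42.0) and edgeR (4.0.16) were run on the recovered reads. Groups came from sample titles. Each library is 1 midgut, so p-values measure the spread between bees and not between colonies. The members, lists and markers were chosen with earlier results of these data known. Named were all members with a symbol, the 8 with the highest ratios, the 4 with the highest control means, the 3 nearest the ratio limit on either side, and list genes. Product names were not in the tables used here, so lists were matched by symbol, and the lists of amino acid transport, folding and gut markers were not run. Sequences and promoter motifs were not analysed here. Overlaps come from the Amel_HAv3.1 table, which is not the build of the reads. Python 3.11.15, numpy 2.4.6, pandas 2.3.3 and matplotlib 3.10.9 were used.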

Additional observations from a re-analysis of the deposited data

How the results depend on the processing

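The rule found 145 to 183 genes under TMM, upper-quartile and library-total scaling, 179 and 127 with a control mean of at least 100 and 400, 442 with a lower ratio limit and 31 with a ratio of at least 2. Leaving out 1 library gave 169 to 291. Because the rule compares extremes, leaving out a library can remove genes only through the limit on the control mean. The median log2 difference of the 157 genes reached 1.24 with library-total scaling, which moved the median of all genes to 0.08, and ran from 1.10 to 1.21 when 1 library was left out. Of 272 values of 17 named genes under the alternative fits, 269 moved by less than 1 SD between replicates. Part of this count was fixed in advance. The fit with the deposited table as a block returned the main values, and each scaling moved these genes by about the same amount. The choice of members by groups that do not overlap fixes their direction.

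Over all genes limma called 238, DESeq2 385 and edgeR 237. Leaving out 1 library gave 47 to 277. With the replicate block, on the libraries numbered 2 and 3, 3 genes were called, 2 of them members, against 203 with no replicate block on these libraries, and 7 were called, 3 of them members, with the deposited table as a block. Across genes, deviations from the group means correlated at 0.0715 and −0.0330 for same-numbered libraries. For libraries in the same table they correlated at −0.178, −0.145 and −0.114. With 3 libraries per group, these values cannot show whether the numbers or the tables paired the bees. The cause of the changes in the number of genes called was not tested. The 3 libraries per group limit the precision of every value.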
